A study of Mus musculus with 6 samples.

Results

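The genes described here are 9 mouse genes whose products switch integrins on: the kindlin genes Fermt1, Fermt2 and Fermt3, the talin genes Tln1 and Tln2, the adaptor gene Apbb1ip, the exchange factor gene Rasgrp2, and the small GTPase genes Rap1a and Rap1b. They were chosen by name from the 23420 rows of the count table, with their counts in the compared libraries already known, so their differences between the groups are given as a description, without a test. All 9 were found, and 8 of them were abundant enough to enter the fit. Fermt3, Apbb1ip and Rasgrp2 are referred to as blood-type members, because blood cells are where they are best known; Fermt2, Tln1, Tln2, Rap1a and Rap1b as general members; and Fermt1 as the epithelial kindlin gene.

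The study sorted PECAM1+ CD45- CD11b- KIT- cells, a gate for endothelium, from whole embryos of the strain Csf1r-iCre;RosatdTomato at embryonic day 12.5. Cre recombinase was driven by the promoter of the myeloid gene Csf1r and switched on the red reporter tdTomato at the Rosa locus, so that a cell with tdTomato either had Cre activity itself or descended from a cell that had it. The tdTom+ group held 3 libraries and the tdTom- group held 3 libraries, both from embryos of the same genotype and told apart by reporter colour alone. As whole embryos were used, each library mixes endothelium of different organs. The protocol names 3 embryos, but the labels do not tie a library number to an embryo, so the p-values below measure only the spread between these samples. Library totals ran from 8919887 to 11767956 counts, so that 3 counts corresponded to 0.254 to 0.336 CPM (the usual scaling of counts to a common library size). The summed level of 12 endothelial genes was 8503 to 9042 CPM in tdTom+ and 8573 to 8891 CPM in tdTom- libraries, and all 12 were detected in every library.

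Integrins are paired alpha and beta receptors for matrix and for other cells, and they rest in a form that binds poorly. A talin and a kindlin bind the tail of the beta subunit together and shift the receptor to its binding form. Rap1, a small GTPase active when loaded with GTP, brings talin to the membrane, partly through the adaptor RIAM, the product of Apbb1ip. In platelets the calcium-sensitive exchange factor CalDAG-GEFI, the product of Rasgrp2, loads Rap1, and kindlin-3, the product of Fermt3, is the kindlin of platelets and leukocytes, while kindlin-2, the product of Fermt2, is the kindlin of most other cells, endothelium included.

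Among the 9 genes, the widest difference between the fractions was in Fermt3. It had 360, 529 and 477 counts in tdTom+ replicates 1 to 3 and 70, 98 and 64 counts in tdTom- replicates 1 to 3. Every tdTom+ library was far above every tdTom- library. The level was 41.5 ± 8.83 CPM (SD, n = 3) in tdTom+ and 7.42 ± 0.784 CPM (SD, n = 3) in tdTom- cells, a fold of 5.58 or a log2 change of 2.48 ± 0.22 (SE). The authors' deposited table gives this gene a log2 fold change of 2.48 once turned to this direction. In bulk RNA, fewer cells of a type and less RNA per cell cannot be told apart. Fermt3 lies on chromosome 19, 6998958 to 7019469 on the minus strand (mm10), and 89 bases of its exons overlap exons of Trpt1 on the other strand. Trpt1 itself had 20 to 55 counts in a library.

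Fermt2, on chromosome 14 from 45458795 to 45530118, was the main kindlin gene of both fractions. It had 3397, 3357 and 3268 counts in the tdTom+ libraries, against 2824, 3253 and 2378 in the tdTom- libraries. Its level was 304 ± 4.96 CPM against 272 ± 4.92 CPM (SD, n = 3), a log2 change of 0.16 ± 0.07 (SE), with all tdTom+ libraries above all tdTom- libraries by a small margin. Fermt1, the kindlin gene of epithelium, on chromosome 2 from 132904389 to 132945906, was near absent, with 13, 0 and 0 counts in the tdTom+ libraries, against 6, 13 and 0 in the tdTom- libraries, and was too low to test. The zeros allow up to 0.275, 0.28 and 0.336 CPM. Summed over 8 epithelial marker genes, the level was 75, 20.3 and 2.15 CPM in tdTom+ replicates 1 to 3 and 38, 58.9 and 35.3 CPM in tdTom- replicates 1 to 3. EdgeR called 0 of the 7 tested genes of that list, with 2 at an unadjusted p under 0.05, and DESeq2 called 0. That list was at its highest in tdTom+ replicate 1, where Fermt1 had 13 counts, as it did in tdTom- replicate 2. In tdTom- replicate 3 the list was at 35.3 CPM and Fermt1 at 0 counts. The part of epithelial RNA in the Fermt1 counts was not tested.

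Compared per length, which allows levels of different genes to be set side by side, Fermt3 made up 11.9%, 16.7% and 15.7% of the counts per kilobase of exon of the 3 kindlin genes in the tdTom+ libraries and 3.05%, 3.68% and 3.31% in the tdTom- libraries. The shares did not overlap between the groups. Fermt2 exceeded Fermt3 per length by 5.93 ± 1.3 times in tdTom+ and by 29 ± 2.81 times in tdTom- cells (SD, n = 3). Fermt3 therefore stayed the smaller part of the kindlin transcripts in every library. The sum of the 3 kindlin genes was 108 ± 4.79 CPM per kilobase in tdTom+ and 85.5 ± 1.75 CPM per kilobase in tdTom- cells (SD, n = 3).

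The stretches before the start sites of Fermt3 and Fermt2 are shown because the balance of these paralogues differed between the fractions. Each holds the 250 bases before the RefSeq start, 5′ to 3′ on the gene's own strand, from RefSeq on GRCm38.p6, the assembly called mm10. Fermt3 is at chr19:7019470-7019719 on the minus strand and Fermt2 at chr14:45530066-45530315 on the minus strand. Capitals mark matches on either strand to GATAA, the core of GATA factor sites, to GGAAG, a core of ETS factor sites, and to TGTGGT or TGCGGT, cores of RUNX factor sites; no marked matches overlap each other.
Fermt3: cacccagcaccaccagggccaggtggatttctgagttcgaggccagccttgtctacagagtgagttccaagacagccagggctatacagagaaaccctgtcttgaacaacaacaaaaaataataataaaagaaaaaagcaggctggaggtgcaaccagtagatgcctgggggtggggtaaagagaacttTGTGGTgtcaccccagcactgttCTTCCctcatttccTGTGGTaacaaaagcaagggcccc
Fermt2: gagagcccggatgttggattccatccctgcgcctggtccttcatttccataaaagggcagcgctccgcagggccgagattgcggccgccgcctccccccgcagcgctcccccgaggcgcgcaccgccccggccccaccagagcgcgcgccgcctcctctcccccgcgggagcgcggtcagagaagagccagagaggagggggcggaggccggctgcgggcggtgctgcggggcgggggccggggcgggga
The Fermt3 window held TGTGGT at 61 to 56 and at 24 to 19 bases before the start, and GGAAG on the opposite strand at 38 to 34 bases before it. The Fermt2 window held none of these letters and was 76% G and C, against 50% in the Fermt3 window. Among 32817 RefSeq promoter windows of this length, 18.6% held a RUNX core, 64.1% the ETS core and 22.6% the GATA core. RefSeq windows were found for 7 of the 9 members, and the GATA core was in none of them. Both a RUNX and an ETS core also stood in the windows of Tln1, Rap1b and Fermt1, while Apbb1ip had an ETS core and no RUNX core. Rasgrp2 had a window with an ETS core only and another window with none of these cores. The matches thus did not follow the split into blood-type and general members. Such matches describe letters only.

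**Figure D1:**
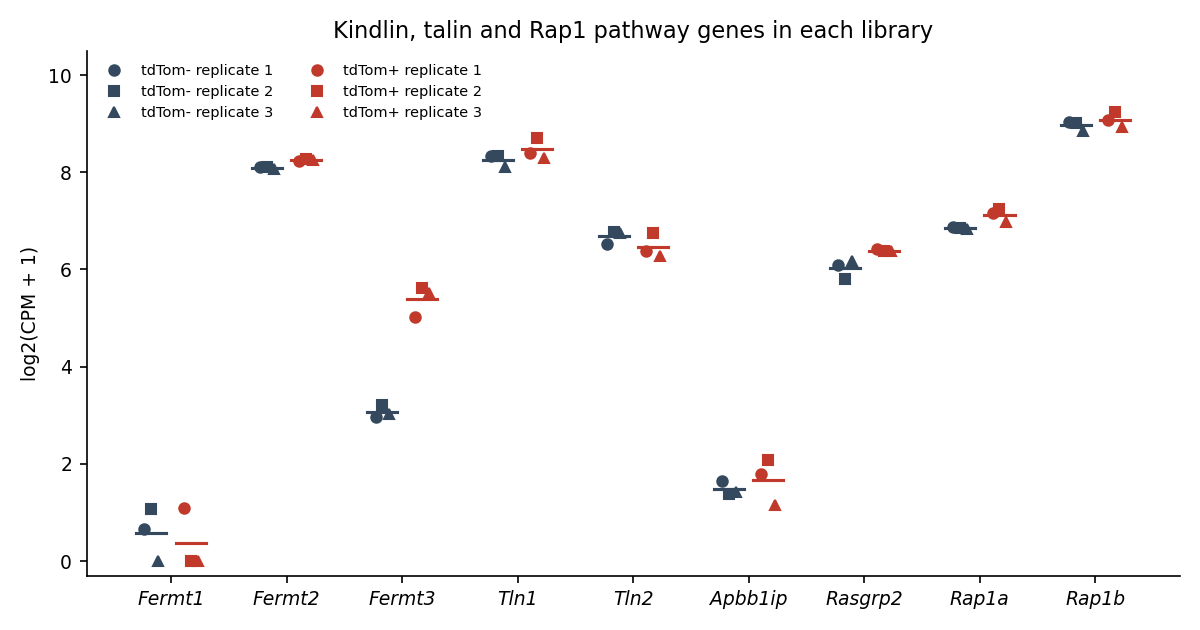
Level of each of the 9 genes in each library, as log2(CPM + 1) on the vertical axis, with 1 symbol per replicate and a bar at the group mean; red is tdTom+ and dark blue is tdTom-. Fermt3 is the gene whose groups are widely separated, at 31.6 to 48.4 CPM against 6.79 to 8.3 CPM.

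The talin genes showed no comparable gap. Tln1, which encodes the talin of blood cells and endothelium, had 3821, 4576 and 3363 counts in the tdTom+ libraries, against 3306, 3788 and 2446 in the tdTom- libraries. This was 356 ± 55.3 CPM against 305 ± 27 CPM (SD, n = 3), a log2 change of 0.22 ± 0.11 (SE), and the groups overlapped. Tln1 lies on chromosome 4 from 43531519 to 43562691 and Tln2 on chromosome 9 from 67217087 to 67559703. Exons of Tln1 share 360 bases with exons of Creb3 on the other strand, a gene with 637 to 891 counts in a library. Tln2, the talin gene best known from muscle and brain, had 931, 1158 and 824 counts in the tdTom+ libraries, against 940, 1279 and 954 in the tdTom- libraries, a log2 change of -0.21 ± 0.14 (SE) with overlapping groups. It was the only tested member with a value below 0. Tln1 made up 85.8% ± 0.251 of the talin counts per kilobase in tdTom+ and 81.6% ± 2.36 in tdTom- cells (SD, n = 3). Summed levels of 7 muscle genes were 11.8 to 22.9 CPM in tdTom+ and 21.3 to 41.4 CPM in tdTom- libraries, of 6 neural genes 45.8 to 67.6 and 78.9 to 94.4 CPM, and of 7 mesenchyme genes 54 to 204 and 98.3 to 330 CPM. In these lists edgeR called 0 genes, with 2 muscle, 3 neural and 2 mesenchyme genes at an unadjusted p under 0.05, while DESeq2 called 1, 2 and 1. Their part in the Tln2 values was not tested.

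The Rap1 genes were abundant in both fractions. Rap1b, the main Rap1 gene of platelets, had 6163, 6551 and 5221 counts in the tdTom+ libraries, against 5420, 6057 and 4131 in the tdTom- libraries, with a log2 change of 0.12 ± 0.09 (SE) and overlapping groups. Rap1a had 1617, 1635 and 1335 counts in the tdTom+ libraries, against 1210, 1352 and 1007 in the tdTom- libraries. Its level was 139 ± 12.7 CPM against 115 ± 2.35 CPM (SD, n = 3), a log2 change of 0.27 ± 0.10 (SE) with all tdTom+ libraries above all tdTom- libraries. Rap1a lies on chromosome 3 from 105727267 to 105801336 and Rap1b on chromosome 10 from 117813871 to 117846035. A processed pseudogene of Rap1a is annotated, and no source used here says how reads shared with it were counted, so the Rap1a counts are uncertain. Per length, Rap1b made up 77.1%, 78% and 77.6% of the Rap1 transcripts in tdTom+ and 79.8%, 79.8% and 78.4% in tdTom- libraries. Rap1b was thus the larger part in every library, by a slightly smaller margin in the tdTom+ libraries.

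Rasgrp2, although counted here among the blood-type genes, was well expressed in both fractions. It had 959, 894 and 882 counts in the tdTom+ libraries, against 696, 647 and 635 in the tdTom- libraries. This was 82.8 ± 1.18 CPM against 64.5 ± 8.58 CPM (SD, n = 3), a log2 change of 0.36 ± 0.13 (SE), and the groups did not overlap. Rasgrp2 lies on chromosome 19, 6399340 to 6415216, 583741 bases from Fermt3, and 265 bases of its exons overlap the noncoding gene Gm14965 on the other strand. Its paralogue Rasgrp3, a diacylglycerol-responsive exchange factor gene known from endothelium, had 3966, 3404 and 3850 counts in the tdTom+ libraries, against 3250, 4043 and 2681 in the tdTom- libraries, with a log2 change of 0.09 ± 0.08 (edgeR, SE; adjusted p = 0.786). Per length, Rasgrp3 exceeded Rasgrp2 by 3.29 ± 0.225 times in tdTom+ and 4.05 ± 0.855 times in tdTom- cells (SD, n = 3). Rasgrp4, known from mast cells, had 52 to 89 counts in a library, and Rasgrp1, the T cell member of the family, had 0, 0 and 0 counts in the tdTom+ libraries, against 1, 16 and 0 in the tdTom- libraries. Rasgrp2 made up 23% ± 1.15 of the 4 Rasgrp genes per length in tdTom+ and 19.8% ± 3.16 in tdTom- cells (SD, n = 3), with overlapping ranges.

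Apbb1ip, on chromosome 2 from 22774094 to 22875653, was low in both fractions but had counts in every library. It had 28, 35 and 13 counts in the tdTom+ libraries, against 22, 19 and 15 in the tdTom- libraries, and the groups overlapped. The log2 fold change of 0.34 ± 0.67 (SE) was smaller than its error and ran from 0.02 without tdTom+ replicate 2 to 0.64 without tdTom+ replicate 3. Its paralogue Raph1, which encodes lamellipodin, had 898 to 1175 counts in tdTom+ and 856 to 1107 counts in tdTom- libraries, with a log2 change of -0.01 ± 0.11 (edgeR, SE; adjusted p = 0.986). Apbb1ip made up 8.24%, 11.4% and 5.17% of the pair per length in tdTom+ and 7.87%, 6.07% and 6.19% in tdTom- libraries. This share rests on the length used: its mean of 8.26% in tdTom+ and 6.71% in tdTom- cells was 4.34% and 3.49% per coding length and 2.35% and 1.88% on raw counts. The blood-type members thus differed from each other: Fermt3 was separated widely between the fractions, Rasgrp2 by a small step, and Apbb1ip was low in both.

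**Figure D2:**
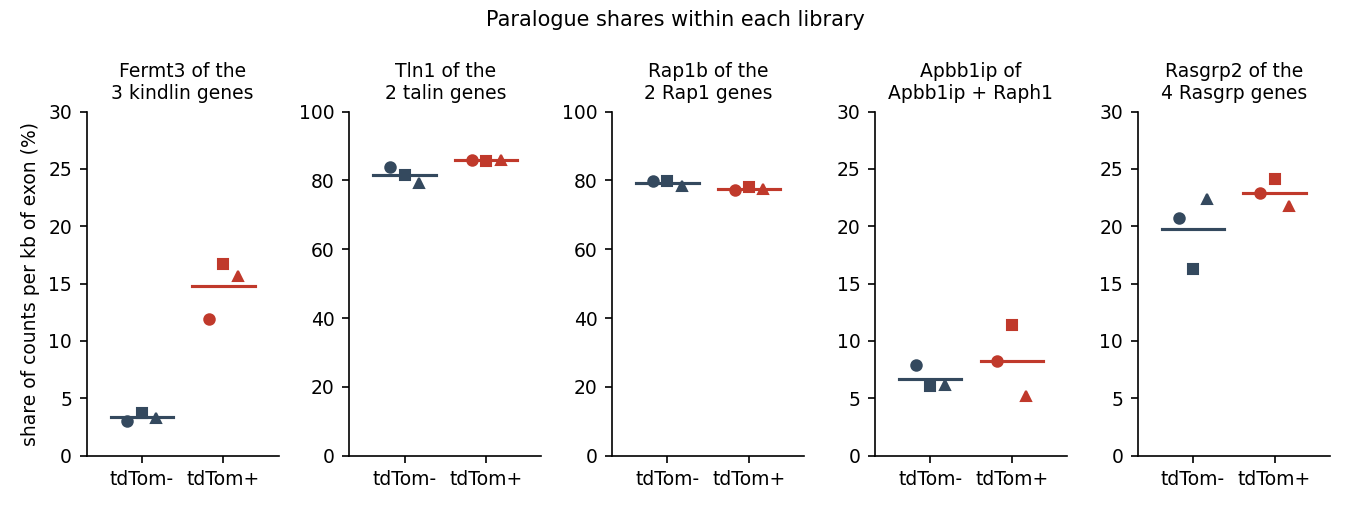
Share of a gene among its paralogues in each library, in percent of counts per kilobase of exon (vertical axes, which run to 30 or to 100), with 1 symbol per replicate and a bar at the group mean. The Fermt3 share is 11.9% to 16.7% in tdTom+ and 3.05% to 3.68% in tdTom- libraries. The Tln1 share (85.5% to 85.9% against 79.2% to 84%) and the Rap1b share (77.1% to 78% against 78.4% to 79.8%) also do not overlap. The Apbb1ip and Rasgrp2 shares overlap between the groups.

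Of the 8 tested members, 1 was called higher and 0 lower (edgeR, adjusted p under 0.05), where 1.58% of all 13142 tested genes were called, 0.769% higher and 0.814% lower. The called member was Fermt3. The groups did not overlap in 4 members, all higher in tdTom+ (Fermt2, Fermt3, Rap1a and Rasgrp2), where this held for 7.88% of all tested genes in the higher and 9.35% in the lower direction. The median log2 fold change was 0.25 over the 8 members and 0.00 over all tested genes. As the members were chosen with this contrast known, nothing is read from these counts.

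Ordered by level per length, the members took the same order in both fractions except that Fermt3 and Tln2 changed places. In tdTom+ cells the order was Rap1b at 199 ± 20.5 CPM per kilobase, Fermt2 at 92.2 ± 1.51, Rap1a at 57.7 ± 5.28, Tln1 at 42.4 ± 6.59, Rasgrp2 at 20.8 ± 0.296, Fermt3 at 16.1 ± 3.41, Tln2 at 7.06 ± 1.25, Apbb1ip at 0.826 ± 0.362 and Fermt1 at 0.0773 ± 0.134 CPM per kilobase (SD, n = 3). In tdTom- cells Tln2 stood above Fermt3, at 8.17 ± 0.758 against 2.87 ± 0.303 CPM per kilobase (SD, n = 3). No neighbours in either order overlapped in their ranges over the libraries. The order depends on the length: with the exons of all annotated transcripts, Fermt3 took place 5 and Rasgrp2 place 6 in tdTom+ cells, and Rasgrp2 took place 6 and Fermt3 place 7 in tdTom- cells.

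The integrin genes were examined for the receptors that these proteins act on. Of 18 alpha subunit genes 11 could be tested, and 1 rose and 0 fell; of 8 beta subunit genes 6 could be tested, and 1 rose and 0 fell. The genes that rose were Itga2b and Itgb3, which together encode the platelet fibrinogen receptor. Itga2b had 1098, 1550 and 765 counts in the tdTom+ libraries, against 152, 171 and 141 in the tdTom- libraries, a log2 change of 2.78 ± 0.23 (edgeR, SE; adjusted p = 0.000292). Itgb3 had 452, 728 and 307 counts in the tdTom+ libraries, against 44, 59 and 55 in the tdTom- libraries, a log2 change of 3.13 ± 0.32 (edgeR, SE; adjusted p = 0.00094). Both pairs of groups were fully separated, and tdTom+ replicate 2 was the highest library for Itga2b, Itgb3 and Fermt3 alike. Among the tdTom+ libraries, Itga2b and Itgb3 were lowest in replicate 3 (71.5 and 28.7 CPM), but Fermt3 in replicate 1 (31.6 CPM). Itgb1, the beta subunit of most matrix receptors, had a level of 1212 ± 75.1 CPM in tdTom+ against 1198 ± 84.8 CPM in tdTom- cells (SD, n = 3) and a log2 change of 0.02 ± 0.07 (edgeR, SE; adjusted p = 0.969). The abundant alpha subunit genes Itga5 and Itga6, which encode fibronectin and laminin receptor subunits, had log2 changes of -0.04 ± 0.09 and 0.13 ± 0.09, and the beta subunit gene Itgb5 had -0.57 ± 0.25 (edgeR, SE; adjusted p = 0.934, 0.685 and 0.457). The alpha subunit list had a median log2 fold change of -0.09 and the beta subunit list one of -0.28, beside 0.00 over all tested genes.

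The kindlin genes can be set against these receptors per length. Fermt3 over Itgb3 was 1.78, 1.62 and 3.47 in tdTom+ and 3.56, 3.71 and 2.6 in tdTom- libraries. Fermt3 over Itga2b was 0.436, 0.453 and 0.828 in tdTom+ and 0.612, 0.761 and 0.603 in tdTom- libraries. Fermt2 over Itgb1 was 0.291 ± 0.0218 in tdTom+ and 0.263 ± 0.0145 in tdTom- cells (SD, n = 3). Both Fermt3 ratios were lowest in tdTom+ replicates 1 and 2, and the groups overlapped in all 3 ratios.

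**Figure D3:**
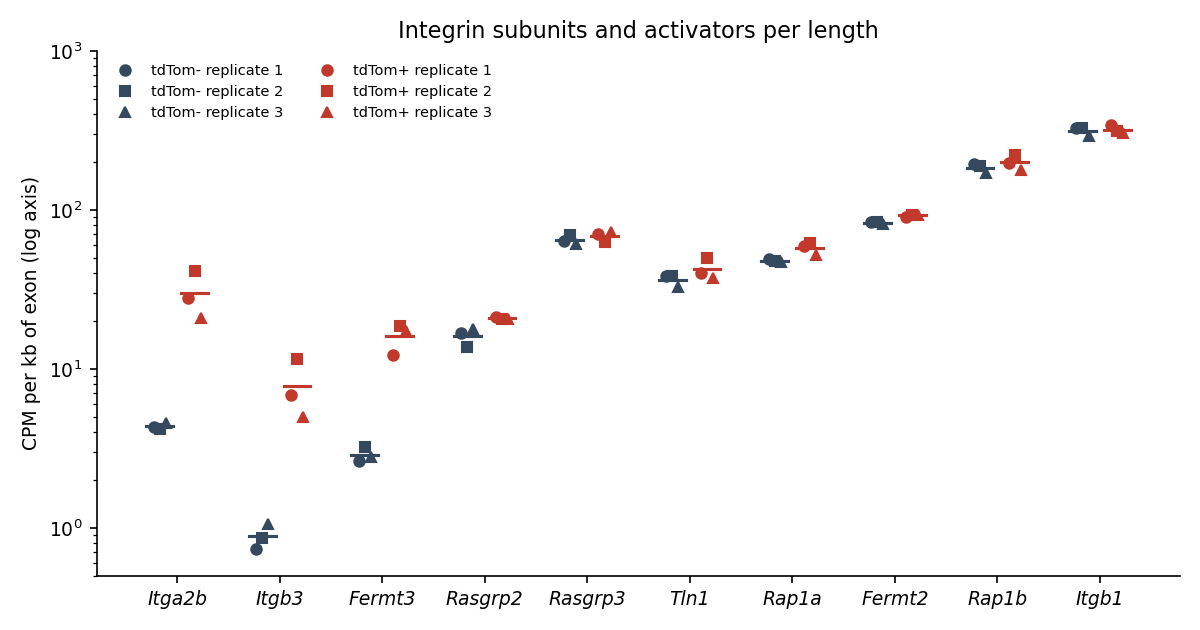
Levels per length of the platelet integrin genes, the main activator genes and Itgb1 in each library (CPM per kilobase of exon, log axis), with 1 symbol per replicate and a bar at the group mean. Itga2b, Itgb3 and Fermt3 are the genes whose groups lie far apart, while Itgb1 is at 318 ± 19.7 and 314 ± 22.2 CPM per kilobase in tdTom+ and tdTom- cells.

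The list of platelet lineage markers was also higher in the tdTom+ libraries, as was that of liver sinusoidal endothelium described below. The summed level of 18 megakaryocyte and platelet genes, Itga2b and Itgb3 among them, was 397, 699 and 452 CPM in tdTom+ and 116, 128 and 131 CPM in tdTom- libraries. Of its 17 tested genes 8 rose and 0 fell with edgeR, where DESeq2 called 14 and limma-voom 3; the median log2 fold change was 2.78, and none of the list was at 0 in all libraries. The genes that rose with edgeR were Itga2b, Itgb3, the chemokine gene Pf4, the platelet tubulin gene Tubb1, Gp5, Plek, Nfe2 and Treml1. Per 100 CPM of that list, Fermt3 stood at 7.95, 6.93 and 9.87 CPM in tdTom+ and 5.83, 6.47 and 5.49 CPM in tdTom- libraries. These groups did not overlap, and all tdTom+ libraries were higher. Rasgrp2 stood at 21.2, 11.7 and 18.2 CPM in tdTom+ and 58, 42.7 and 54.5 CPM in tdTom- libraries on the same scale. Clec1b, which encodes the platelet receptor CLEC-2, alone held 44.2 to 65.8 CPM of the list in tdTom- libraries and had a log2 change of 0.37. Without it, in an alternative chosen after seeing the data, Fermt3 stood at 9.25, 7.9 and 11.6 CPM in tdTom+ and 10.6, 9.88 and 11.1 CPM in tdTom- libraries, and the groups overlapped. Rasgrp2 was lower per list level in all tdTom+ libraries both with and without it, at 13.3 to 24.6 CPM against 65.2 to 110 CPM without it. The part of platelet lineage RNA in the Fermt3 values was not tested.

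With edgeR, markers of other blood cells gave 0 to 2 calls a list, and those of liver sinusoidal endothelium gave 8. The summed level of 14 macrophage genes was 38.4 to 55.5 CPM in tdTom+ and 27.9 to 34.9 CPM in tdTom- libraries, with 0 of 11 tested genes called. Of 7 pan-leukocyte genes 4 could be tested and 0 were called, and the sum was 90 to 132 CPM in tdTom+ and 124 to 138 CPM in tdTom- libraries. Laptm5 alone held most of that sum, at 84.5 to 123 CPM in tdTom+ and 118 to 132 CPM in tdTom- libraries. Ptprc, which encodes the gated leukocyte protein CD45, had 0, 0 and 4 counts in the tdTom+ libraries, against 19, 0 and 22 in the tdTom- libraries, too low to test. Of 11 erythroid genes 10 could be tested, 2 rose (Gata1 and Klf1, transcription factor genes, the former also of megakaryocytes) and 0 fell, while DESeq2 called 5 and limma-voom 1, and 6 had an unadjusted edgeR p under 0.05. The sum of the list was 225 to 308 CPM in tdTom+ and 149 to 253 CPM in tdTom- libraries, while the globin gene Hba-a1 was at 0 in all libraries. Of 10 liver sinusoidal genes 9 could be tested, 8 rose and 0 fell, with sums of 2427 to 2813 CPM in tdTom+ and 972 to 1085 CPM in tdTom- libraries. For this list DESeq2 and limma-voom each called 8 as well. With edgeR, 2 macrophage genes, 0 pan-leukocyte genes and 1 endothelial gene had an unadjusted p under 0.05, and DESeq2 called 0 in each of the 3 lists. The part of these cell types in the Fermt3 values was not tested.

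Of 108 other genes of the pathway, the integrins included, 94 could be tested. Of these 5 rose and 0 fell, where 0.769% of all tested genes were higher and 0.814% lower, with a median log2 fold change of 0.06. None of 8 tested genes of Rap exchange factors and their Rasgrp paralogues was called. Among them the abundant Rapgef3, which encodes the cyclic AMP-sensitive EPAC1, had -0.08 ± 0.17 on the log2 scale (edgeR, SE, adjusted p = 0.926). None of 7 tested genes listed as Rap GTPase-activating proteins was called. The list included Arap3, whose product is known as a Rap effector rather than a GTPase-activating protein for Rap. On the log2 scale Sipa1 had -0.02 ± 0.09 and Arap3 had 0.26 ± 0.12 (edgeR, SE, adjusted p = 0.979 and 0.449). None of 9 other Rap and Rap effector genes was called, including the endothelial effector gene Rasip1, at 872 ± 30.5 CPM in tdTom+ against 882 ± 37.4 CPM in tdTom- cells (SD, n = 3), and the junction adaptor gene Mllt4, which encodes afadin, at -0.04 ± 0.10 on the log2 scale (edgeR, SE; adjusted p = 0.939). Before adjustment, edgeR gave p under 0.05 to 0 of the exchange factor genes, 2 of the GTPase-activating protein genes and 1 of the effector genes, and DESeq2 called 0 in each of these lists.

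Of 14 integrin inhibitors and talin-binding regulators 1 rose and 0 fell with edgeR, where DESeq2 called 2 and 5 genes had an unadjusted edgeR p under 0.05. It was Dab2, an endocytic adaptor gene, with 4942, 2951 and 3991 counts in the tdTom+ libraries, against 2087, 2352 and 1699 in the tdTom- libraries and a log2 change of 0.86 ± 0.14 (edgeR, SE; adjusted p = 0.0138). Its call ended without tdTom- replicate 1 (adjusted p = 0.0636), 2 (0.0658) or 3 (0.1). Flna, the filamin gene whose product competes with talin for integrin tails, had a log2 change of -0.03 ± 0.08 (edgeR, SE; adjusted p = 0.944). None of 14 adhesion plaque adaptor genes was called; the abundant Lims1, which encodes PINCH1, and Ptk2, which encodes focal adhesion kinase, had 0.19 ± 0.07 and 0.14 ± 0.08 on the log2 scale (edgeR, SE; adjusted p = 0.323 and 0.606). In the adaptor list 3 genes had an unadjusted edgeR p under 0.05, and DESeq2 called 0.

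Other cytoskeletal families with a blood-type and a general paralogue were compared in the same way. Of 14 blood-type genes 11 could be tested, 1 rose and 0 fell, and the median log2 fold change was 0.59. Of 16 general paralogues, all tested, 1 rose and 0 fell, and the median was 0.01. Over all tested genes 0.769% were called higher and 0.814% lower, and the median was 0.00. Both lists were chosen with earlier results of these data known, so nothing is read from these counts and medians. DESeq2 called 2 blood-type and 3 general genes, and 4 and 3 had an unadjusted edgeR p under 0.05. The blood-type gene that rose was Arhgdib, a GDP-dissociation inhibitor gene, at 227 ± 7.1 CPM in tdTom+ against 143 ± 7.53 CPM in tdTom- cells (SD, n = 3), or on the log2 scale 0.67 ± 0.08 (edgeR, SE; adjusted p = 0.00269). Its general paralogue Arhgdia had -0.03 ± 0.06 on the log2 scale (edgeR, SE; adjusted p = 0.933). Rac2, the blood-type Rac gene, was picked out with its values known: it had 49, 58 and 61 counts in the tdTom+ libraries, against 12, 14 and 6 in the tdTom- libraries, a log2 change of 2.32 ± 0.58 that did not pass, beside 0.07 ± 0.06 for Rac1 (edgeR, SE; adjusted p = 0.0903 and 0.765). Lcp1, the blood-type plastin gene, was abundant in both fractions, at 493 ± 85.2 and 504 ± 31.9 CPM (SD, n = 3). Parvg, the blood-type parvin gene, also picked with its values known, had 10, 0 and 1 counts in the tdTom+ libraries, against 14, 23 and 12 in the tdTom- libraries. The general gene that rose was Myo1c, a membrane-bound myosin gene, with a log2 change of 0.45 ± 0.09 (edgeR, SE; adjusted p = 0.0299), but leaving out a library, whichever of the 6 it was, ended that call (adjusted p from 0.0503 to 0.123). Of the 11 tested blood-type genes, 8 had a value above 0 and the values ran from -2.21 to 2.32.

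**Figure D4:**
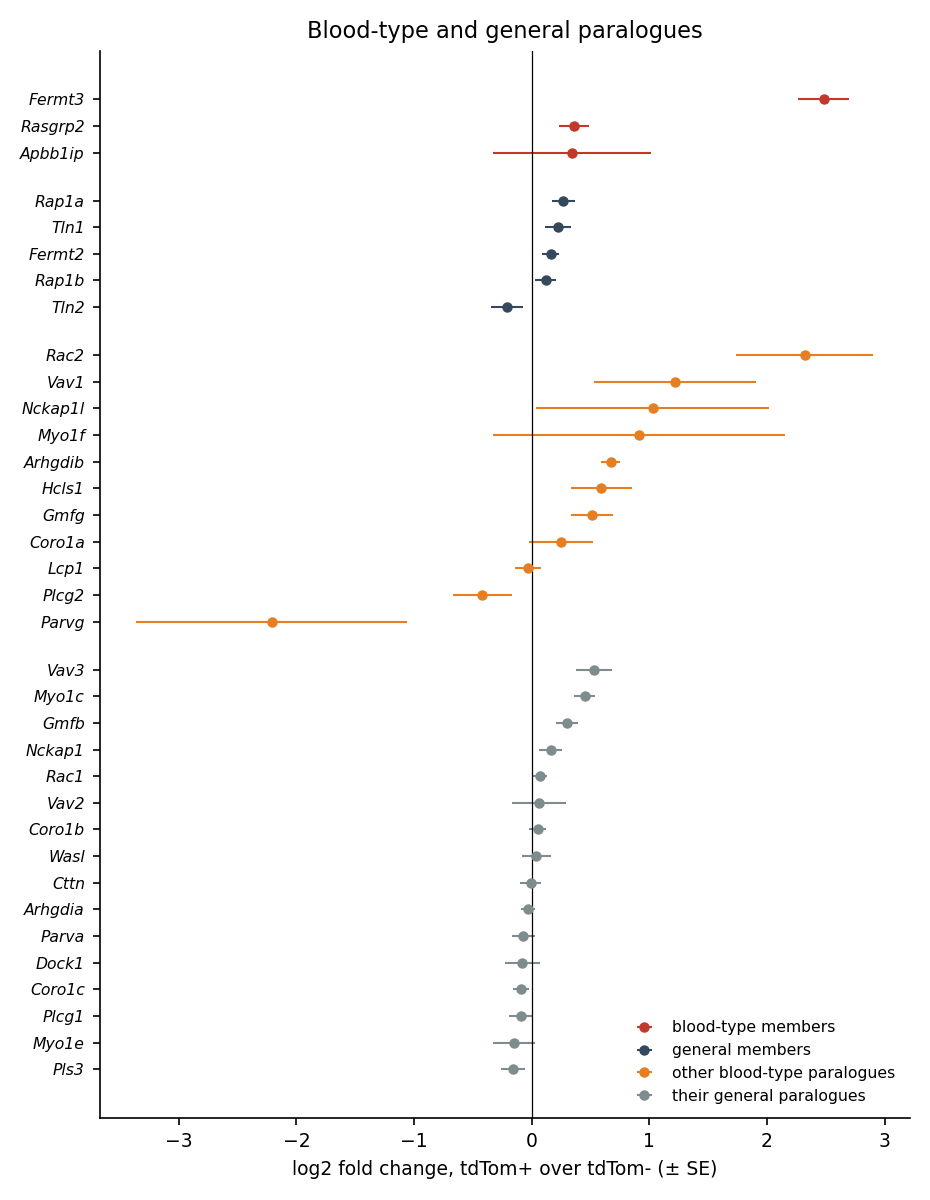
Log2 fold change of tdTom+ over tdTom- (horizontal axis, bars are SE) for the tested blood-type and general members and for the tested genes of the other paralogue families. Fermt3 at 2.48 and Rac2 at 2.32 lie farthest right, Parvg at -2.21 farthest left, and the general paralogues lie between -0.21 and 0.53.

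The genes most like each blood-type member over the 6 libraries were taken as those with the highest Pearson correlation of log2(CPM + 1), among 10136 tested genes with a mean of at least 3 on that scale. For Fermt3 they were Ctla2a, Fabp5, Fabp4, Taf1d and Gpr146, with r of 0.993, 0.993, 0.992, 0.992 and 0.991. Their log2 fold changes, from 0.19 ± 0.10 for Taf1d to 0.97 ± 0.12 for Fabp4 (SE), were smaller than that of Fermt3. For Rasgrp2 they were Lgals3bp, Gpr56, Ccdc58, Ap2s1 and Tmem29, with r of 0.985 to 0.992. For Apbb1ip they were Sel1l, Tatdn1, Phf7, Srek1ip1 and Tex9, with r of 0.983 to 0.991. All points share the same 6 libraries and their split into groups, so these values are a description of few samples. The names depend on the measure: ranking by Spearman's rank correlation left 0 of the 5 genes for Fermt3, 1 for Rasgrp2 and 0 for Apbb1ip.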

How the data were processed

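RNA from the sorted cells was amplified with the SMART-seq V4 kit and made into libraries with Nextera XT, per the labels' protocols. This kit does not mark strand, so reads of overlapping genes on opposite strands cannot be told apart. Of tools, the notes of the submitters on processing list featureCounts 1.4.6, STAR 2.5.2b, DESeq2, Trimmomatic 0.36.4 and Picard 2.7.1.1, and of builds mm10, giving none a role. Whole-number read counts per gene symbol and library were deposited by the authors, without normalization. In the same table stand the authors' log2 fold change, used for Fermt3 only, and the authors' adjusted p-value, which was copied and not used; 6 normalized columns were not used.

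Groups came from the sample titles. Counts were fitted with edgeR 4.0.16 in R 4.3.3 (TMM factors, filterByExpr at its min.count of 10, two-sided quasi-likelihood F-test with robust dispersion, no block) on the 6 libraries. The p-values of 13142 genes were adjusted by Benjamini and Hochberg's method, and 0.05 was the threshold. The fit was tested on simulated data. Fold changes are tdTom+ over tdTom- with SE = log2 fold change over the square root of F. CPM use TMM-scaled library sizes. Gene positions (GENCODE, mm10) span the whole gene. Lengths are the joined exons of protein-coding transcripts in the GENCODE vM21 basic set. Floors cover counting error only, since amplified reads are not independent molecules. No replicates of a group agreed within sampling noise (mean chi-square per gene 8.02 to 19.3). Lists took older symbols through RefSeq synonyms, and 1 listed symbol was not matched.

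The members and gene lists were chosen with earlier results of these data known. Named are all members, the other Rasgrp genes and Raph1, up to 4 called genes of each pathway list, the 2 with the highest mean CPM where fewer than 2 passed, and the 5 genes most like each blood-type member. Rac2, Parvg and the genes named from the marker lists stand outside this rule and were chosen with their values known. Alternatives were DESeq2 1.42.0, limma-voom (limma 3.58.1), DESeq2 size factors, 2 other filters, the replicate block, each library left out, other lengths and other likeness measures. Coding length from RefSeq proteins was not used here; coding length from GENCODE, exons of all transcripts and the platelet list without Clec1b were chosen after seeing the data.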

Additional observations from a re-analysis of the deposited data

How the results depend on the processing

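The Fermt3 log2 fold change was 2.36 to 2.64 when a library was left out and 2.44 to 2.48 under the other fits; these values come from the counts by which the gene was chosen and support nothing. Called genes numbered 217 higher and 267 lower with DESeq2, against 101 and 107 with edgeR, and 37 to 97 higher and 25 to 92 lower when a library was left out. The fewest were called without tdTom- replicate 3 (37 and 25), 2 (43 and 28) or 1 (51 and 32) and without tdTom+ replicate 1 (61 and 65). Of the other pathway genes 9 were called with DESeq2 and 3 to 4 with a library left out, against 5; it was 3 without tdTom- replicate 1, 2 or 3. The mean Fermt3 share of the kindlin genes was 12% in tdTom+ and 2.65% in tdTom- cells on raw counts, and 2.71% in tdTom- cells per coding length, against 14.7% and 3.35%. The Apbb1ip share fell further, from 8.26% and 6.71% to 4.34% and 3.49% per coding length and to 2.35% and 1.88% on raw counts. With the exons of all transcripts Fermt3 took place 5 in place of 6 in tdTom+ cells, and Rasgrp2 place 6 in place of 5 in both fractions. Spearman's rank correlation kept 0, 0 and 1 of the 5 genes most like Fermt3, Apbb1ip and Rasgrp2, and a pseudocount of 0.25 kept 5 of 5 for each. Coding length from RefSeq proteins was not run.

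The fit with a replicate block called 128 genes higher and 167 lower, 194 of the 208 calls were shared, and Fermt3 had a log2 change of 2.47. Same-numbered libraries correlated in their deviations from the group means at r = 0.12, 0.0912 and 0.17, and each library correlated best with its own number, which is a hint from the data, not the design; as the labels tie no number to an embryo and 1 correlation was under 0.1, the main values have no block. At the counts of 35 a library or fewer seen in Apbb1ip and Fermt1, a difference of the size seen for Rasgrp2 (0.36) lay within the error of the fit (0.67 for Apbb1ip) and was not detectable at this depth.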
